A study of Mus musculus with 20 samples.

Results

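The genes described here were 7 adrenergic receptor genes, Adra1a, Adra1b, Adra1d, Adra2a, Adra2b, Adra2c and Adrb1, taken as a list by symbol. All 7 were among the 19214 genes of the count tables and all 7 passed the filter on low counts, which left 14884 genes. They were measured by RNA-seq of polyadenylated RNA in 20 mouse libraries of the BNST (bed nucleus of the stria terminalis), a forebrain nucleus that lies between amygdala and hypothalamus. The 4 groups of 5 libraries were control females, females called susceptible, control males and males called susceptible. Susceptible mice had undergone chronic restraint stress, repeated confinement used to model anxiety. The labels gave no strain, age or length of stress, did not say how susceptibility was decided, and did not say whether a library held 1 animal or several. Other adrenergic receptor genes were not analysed here.

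Adrenergic receptors are membrane receptors for noradrenaline and adrenaline, and they fall into 3 classes by the G protein they use. The α1 receptors (Adra1a, Adra1b, Adra1d) act through Gq and phospholipase C and mostly excite neurons, the α2 receptors (Adra2a, Adra2b, Adra2c) act through Gi and Go and restrain adenylyl cyclase and transmitter release, and β1 (Adrb1) acts through Gs and cAMP. The BNST receives dense noradrenergic fibres from the brain stem, and noradrenaline there is known for its part in stress and anxiety responses and in the aversive side of drug withdrawal.

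The list was small and spread over the genome (GRCm38 coordinates, GENCODE annotation). Adra1a lay on the plus strand of chr14:66635251-66771168, Adra1b on the minus strand of chr11:43774606-43901210, and Adra1d on the minus strand of chr2:131545850-131562283. Adra2a lay on the plus strand of chr19:54044151-54048982, Adra2b on the plus strand of chr2:127363208-127367221, Adra2c on the plus strand of chr5:35278319-35281763, and Adrb1 on the plus strand of chr19:56722199-56733113. The longest transcripts of Adra2b and Adra2c had 1 exon, and that of Adra1b had 5. An exon of Adra1d overlapped the antisense gene Gm14285, which the tables do not list, so with the strand setting not given in the sources used here, reads of the pair cannot be told apart.

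RefSeq promoter windows (GRCm38.p6, 250 bases before to 50 bases after a transcription start) were found for 5 of the 7 genes, 6 windows in all, of which 4 are shown. Adra1b and Adra2c are shown because their levels varied in opposite directions over the libraries, and Adra2a because its window held 2 of the motif matches. Lower case marks the reference sequence, 5′ to 3′ along the gene, and capitals mark a motif match, of which the windows of Adra1b and Adra2c had none.
Adra1b, upstream start, chr11:43901188-43901487, minus strand: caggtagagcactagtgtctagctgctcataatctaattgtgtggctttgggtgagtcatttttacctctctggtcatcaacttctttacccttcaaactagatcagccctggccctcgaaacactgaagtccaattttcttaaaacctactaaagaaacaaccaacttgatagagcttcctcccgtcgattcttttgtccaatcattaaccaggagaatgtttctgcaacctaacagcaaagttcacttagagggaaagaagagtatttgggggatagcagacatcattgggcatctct
Adra1b, start inside the gene, chr11:43836440-43836739, minus strand: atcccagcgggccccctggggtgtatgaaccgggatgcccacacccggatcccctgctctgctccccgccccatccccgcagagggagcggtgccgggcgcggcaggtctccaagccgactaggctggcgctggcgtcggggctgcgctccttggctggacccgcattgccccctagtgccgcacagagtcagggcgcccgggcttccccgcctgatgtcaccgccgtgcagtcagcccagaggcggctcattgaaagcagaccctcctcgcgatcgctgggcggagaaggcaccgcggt
Adra2c, chr5:35278316-35278615, plus strand: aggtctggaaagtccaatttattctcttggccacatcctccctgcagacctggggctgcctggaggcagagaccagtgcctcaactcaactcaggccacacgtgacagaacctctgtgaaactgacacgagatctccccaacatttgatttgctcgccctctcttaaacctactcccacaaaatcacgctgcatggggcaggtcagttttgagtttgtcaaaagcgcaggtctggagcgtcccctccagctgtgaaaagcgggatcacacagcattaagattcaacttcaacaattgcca
Adra2a, chr19:54045009-54045308, plus strand: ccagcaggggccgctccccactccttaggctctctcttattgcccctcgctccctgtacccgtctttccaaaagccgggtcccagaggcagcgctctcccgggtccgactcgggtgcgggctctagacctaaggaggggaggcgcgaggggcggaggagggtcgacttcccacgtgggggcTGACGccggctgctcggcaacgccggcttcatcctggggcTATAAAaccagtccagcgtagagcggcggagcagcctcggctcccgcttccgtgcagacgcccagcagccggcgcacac
The windows of Adra2a and Adra2c lay for the most part inside the GENCODE gene, since the RefSeq start was downstream of the GENCODE start.

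The windows differed in base composition. The upstream Adra1b window held 42.3% G and C and 3 CpG dinucleotides, and the window inside the gene 71.3% and 28. The Adra2c window held 51.3% G and C with 7 CpG, near the median of the 32851 promoters in the table, which was 52.7% with 7 CpG. Adra2a (68.7%, 28 CpG), Adra2b (68.0%, 29 CpG) and Adrb1 (72.3%, 28 CpG) were rich in both. The search, on both strands, used 4 motifs chosen after the levels were known. These were the full cAMP response element TGACGTCA, held by 1.79% of all promoters in the table, its core TGACG, which overlaps it (20.8%), the TCF/LEF core CTTTGAT (3.73%) and the TATA box TATAAA (13.6%). The TGACG core began at position -69 from the start in Adra2a and at position -90 in Adrb1, and TATAAA at position -29 in Adra2a. No other match was found in the 6 windows.

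The libraries held 14637636 to 17862840 counts each, and the 14 markers listed for the BNST and its GABA neurons, such as Gad1, Lhx8, Six3 and Crh, were detected in every group. Markers of neighbouring regions varied widely between libraries of a group. The summed level of 13 striatal markers ran from 396.5 to 2566 CPM (read counts normalised to library size and scaled by the TMM method) in female controls and from 1260 to 5951 CPM in susceptible females. In males it ran from 2284 to 4495 CPM in controls and from 1249 to 3992 CPM in susceptible mice. That of 10 thalamic markers ran from 104.9 to 1319 CPM in female controls, 99.35 to 1252 in susceptible females, 108.6 to 576 in male controls and 188.2 to 1159 in susceptible males. No gene of either list was at 0 in any group. Of 20 libraries, 7 held over 100 CPM of Ttr, the chief choroid plexus transcript, and 5 held over 1 CPM of Pmch, a lateral hypothalamic peptide (female controls 1, 2 and 3, susceptible female 4 and susceptible male 5).

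Adra2c, the α2C receptor that restrains release at low firing rates, had the highest level per exon length, with Adra2a, Adrb1 and Adra1b next and Adra1d, Adra1a and Adra2b lower. The mean over 20 libraries, in CPM per kb of annotated exon, was 10.62 ± 3.52 (SD, n = 20) for Adra2c, 6.47 ± 1.61 for Adra2a and 5.71 ± 1.12 for Adrb1. It was 4.17 ± 2.60 for Adra1b, 1.72 ± 0.935 for Adra1d, 1.34 ± 0.333 for Adra1a and 1.11 ± 0.581 for Adra2b. By share of the summed level of the 7 genes, Adra2c made up 34.1% on average over a range of 9.19% to 47.8%, and Adra2b 3.53%.

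Among neighbours in that order, the means of Adra2c and Adra2a differed by more than the larger of their SDs, and those of the other 5 pairs by less. Adra2c exceeded Adra2a in 18 of 20 libraries and Adra1b exceeded Adra1d in 19 of 20. Adra2a exceeded Adrb1 in 14, Adrb1 exceeded Adra1b in 15, Adra1a exceeded Adra2b in 15 and Adra1d exceeded Adra1a in 12 of 20. Adra2c was the highest of the 7 in all 5 male controls, in 4 susceptible males, 3 susceptible females and 2 female controls. Adra1b was the highest in 3 libraries, Adra2a in 2 and Adrb1 in 1. With the longest transcript in place of all exons, Adra1a moved to 2.73 CPM per kb and passed Adra1d, and Adrb1, at 6.54, passed Adra2a, at 6.47. By that length Adra1b, at 4.23, exceeded Adra1a in only 10 of 20 libraries.

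**Figure D1:**
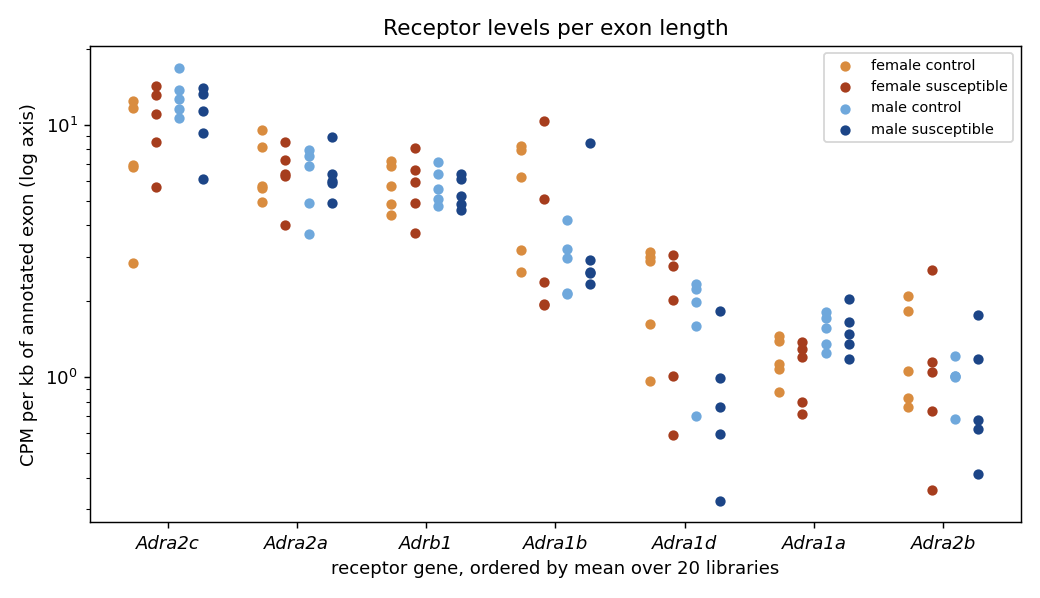
Levels of the 7 receptors in each of 20 libraries, as CPM per kb of annotated exon on a log axis, with genes ordered by their mean and points coloured by group. Adra2c had the highest mean, 10.62, and Adra2b the lowest, 1.11, while the high libraries of Adra1b reached the range of Adra2c.

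None of the 7 receptors passed an adjusted p of 0.05 in any of 6 comparisons (edgeR quasi-likelihood test, Benjamini-Hochberg over all genes). Whether the libraries came from separate animals is not stated in the labels, so a p-value here measures the spread between libraries, which may be technical. In bulk tissue fewer cells of a type and less RNA per cell cannot be told apart. Of all genes tested, 0% were called in susceptible against control females, 0% in males, 0% in the difference between those responses and 0% in their mean, with 0.511% called between male and female controls and 0.047% between susceptible males and females. At an unadjusted p under 0.05, 0 of 7 receptors passed in females (5.85% of all genes), 0 in males (9.67%), 0 in the difference between the sexes (8.26%) and 0 in the mean response (7.71%). In controls 1 receptor passed between the sexes (Adra2c, against 19.2% of all genes), and in susceptible mice 2 passed (Adra1a and Adra1d, against 6.28%). DESeq2 called none of the receptors to which it gave an adjusted p. It gave none to Adra1d for stress in males (unadjusted p = 0.0397) or for the mean response (unadjusted p = 0.0538).

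The groups overlapped for every receptor in every comparison. Over all genes tested, the 5 libraries of one group lay wholly above or below those of the other for 0.457% of genes in females, 2.44% in males, 3.89% between controls and 0.779% between susceptible mice, and for 0 of 7 receptors in each. All 7 receptors varied more within groups than the median gene, though genes were not matched by level. The pooled within-group SD on the log2 scale was 0.80 for Adra1d, 0.78 for Adra1b, 0.74 for Adra2b and 0.57 for Adra2c. It was 0.40 for Adra2a, 0.32 for Adra1a and 0.30 for Adrb1, against a median of 0.20 over all genes tested. The share of tested genes with a smaller SD ran from 69.8% for Adrb1 to 96.4% for Adra1d.

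**Figure D2:**
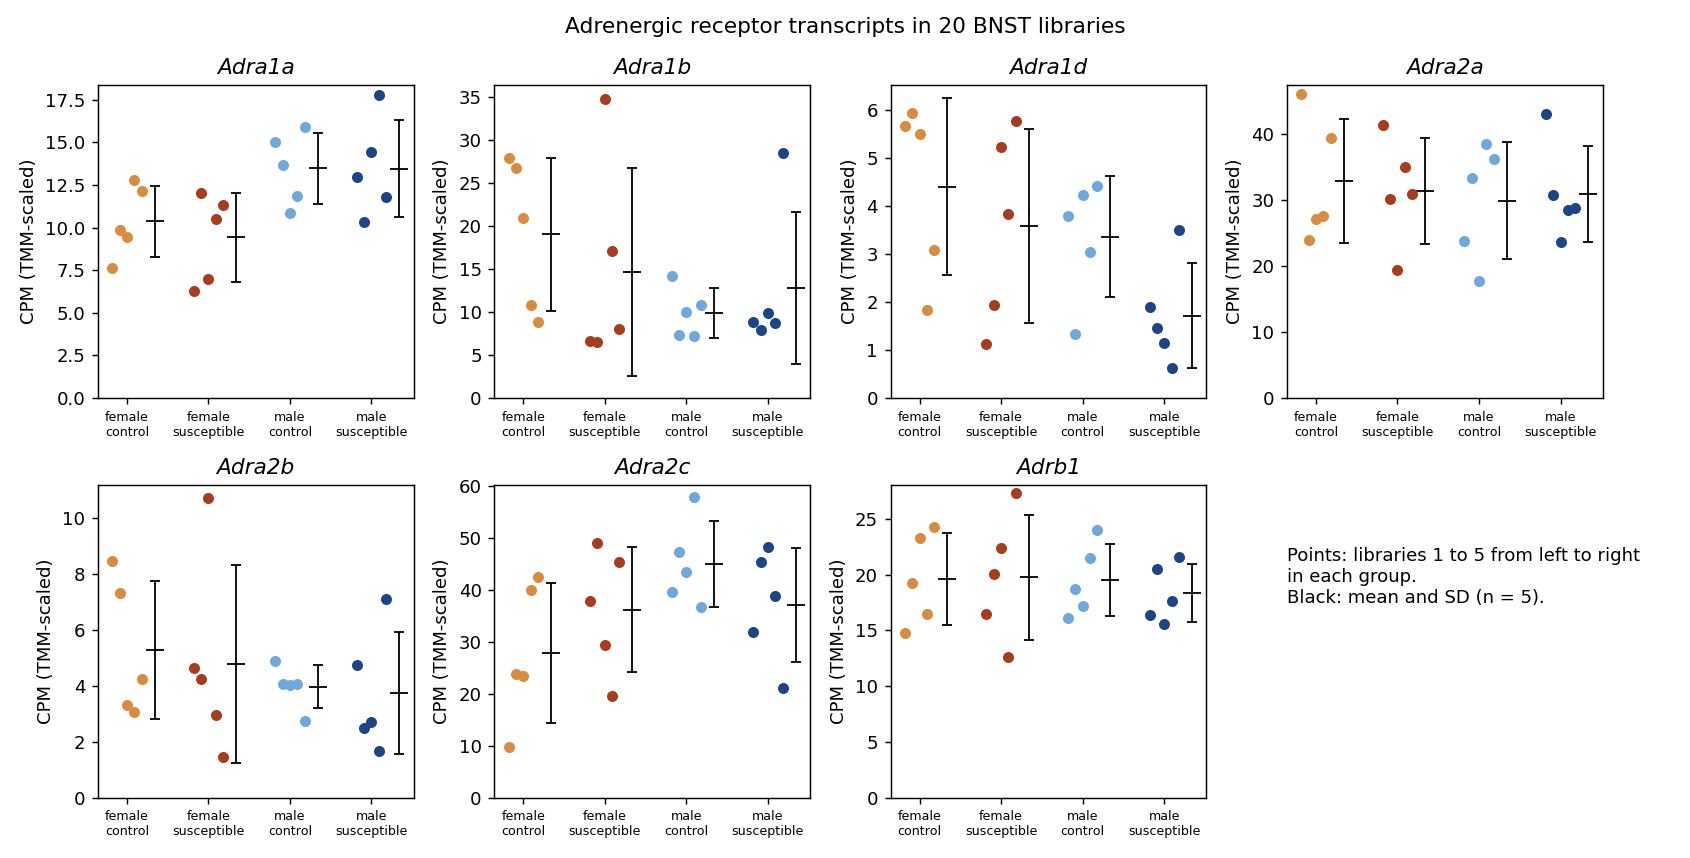
Level of each receptor in CPM (linear axes from 0), 1 point per library ordered 1 to 5 within a group, with the group mean and SD (n = 5) in black. All groups overlap, Adra1d is lowest in susceptible males (mean 1.72) and the high Adra1b points reach 34.8.

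Among the α1 receptors, Adra1d had the largest estimated response to stress, in males. Adra1d, which encodes the α1D receptor, was at 3.78, 1.34, 4.23, 3.04 and 4.43 CPM in male controls 1 to 5 and at 1.89, 1.45, 1.14, 0.618 and 3.49 CPM in susceptible males 1 to 5. Of the susceptible males 4 lay below 4 of the 5 controls, while susceptible male 5 and male control 2 sat inside the other group. The counts behind these values were low, 10 to 53 per library in susceptible males and 22 to 71 in male controls. The estimate was a log2 fold change of -0.97 ± 0.48 (SE, 0.511-fold), with a 95% interval of -1.97 to 0.03 and an adjusted p of 0.53 by edgeR.

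In females Adra1d was at 5.67, 5.94, 5.50, 1.84 and 3.08 CPM in controls and at 1.12, 1.93, 5.23, 3.84 and 5.77 CPM in susceptible mice. Both groups held high and low libraries, and the estimate was -0.30 (95% interval -1.25 to 0.65). The mean response of the sexes was -0.64 ± 0.33 (edgeR adjusted p = 0.68), and the response in females minus that in males was 0.67 ± 0.66 (adjusted p = 0.72), so the responses were not shown to differ. That difference moved with the libraries used. It was 0.43 without susceptible female 5, 0.45 without susceptible male 4, 1.10 without susceptible male 5 and 1.10 with the striatal and thalamic scores as covariates. Leaving out the libraries high in Ttr gave 1.46, and leaving out those high in Pmch gave 1.90 (unadjusted p = 0.0293, edgeR adjusted p = 0.9984). The Pmch setting leaves out female controls 1, 2 and 3 and susceptible male 5, the libraries highest in Adra1d of their groups. Only female controls at 1.84 and 3.08 CPM remained there, against susceptible females at 1.12, 1.93, 5.23 and 5.77 CPM. The adjusted p of the difference over all alternatives ran from 0.598 to 1. Between susceptible males and susceptible females Adra1d differed by -1.06 ± 0.48 (unadjusted p = 0.0395, edgeR adjusted p = 0.77), and by -1.65 without the libraries high in Ttr. In controls the male minus female estimate was -0.39 (95% interval -1.35 to 0.56).

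The Adra1d stress estimate in males was larger with libraries of neighbouring tissue left out, while the mean over both sexes was smaller, at -0.62 without the libraries high in Ttr and -0.44 without those high in Pmch. In males the estimate was -1.35 with the 7 libraries high in Ttr left out (edgeR adjusted p = 0.78) and -1.39 without the 5 high in Pmch (edgeR adjusted p = 0.71). Both settings leave out susceptible male 5, at 3.49 CPM the highest of its group and the only male library high in Pmch. Leaving out that library alone gave -1.40, and leaving out susceptible male 4 alone gave -0.75. With the striatal and thalamic marker scores as covariates the estimate in males was -1.13 (unadjusted p = 0.0187, edgeR adjusted p = 0.34). Cortical and hippocampal markers were also lower in susceptible males, with 9 of 10 estimates below 0 against male controls (median -0.99, against -0.01 over all genes) and summed levels of 106.5 to 303.6 CPM against 190.7 to 848.6. Against susceptible females, 9 of 10 estimates of the same list were below 0 (median -1.20, against -0.02 over all genes), with summed levels of 131.0 to 1012 CPM in those females. Over the 16 libraries with low scores of that list, Adra1d and the score correlated with a Pearson r of 0.23 (permutation p = 0.39), and with -0.0644 after centring on the group means. These r leave out the 4 libraries with high scores, female controls 3 and 5, male control 5 and susceptible female 5. Those held 5.505, 3.08, 4.43 and 5.77 CPM of Adra1d. Male control 5 and susceptible female 5 also had the highest summed levels of the list in their groups. The part of those markers in the Adra1d estimates was not tested further.

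Adra1a, the α1A receptor, had higher mean levels in males than in females under both conditions. Female controls 1 to 5 were at 7.65, 9.86, 9.42, 12.8 and 12.1 CPM and male controls at 15.01, 13.7, 10.9, 11.9 and 15.9 CPM. Of the male controls, 3 lay above every female control, and the other 2 lay inside the female range. The control estimate, male minus female, was 0.38 ± 0.19 (1.30-fold, 95% interval -0.02 to 0.77, edgeR adjusted p = 0.28).

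Susceptible females were at 6.27, 12, 6.98, 10.5 and 11.3 CPM of Adra1a and susceptible males at 12.97, 10.3, 14.4, 17.8 and 11.8 CPM. Again 3 males lay above every female, with susceptible males 2 and 5 inside the female range. The estimate was 0.52 ± 0.19 (1.43-fold, 95% interval 0.12 to 0.91), with an unadjusted p of 0.0137 and an edgeR adjusted p of 0.74. It was 0.52 with the striatal and thalamic scores as covariates, 0.43 without the libraries high in Ttr and 0.61 without those high in Pmch. The control estimate fell to 0.21 with the covariates and to 0.10 without the Pmch libraries. For stress, the Adra1a estimates were -0.14 (95% interval -0.54 to 0.26) in females and -0.0002 (95% interval -0.39 to 0.39) in males.

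Adra1b, the α1B receptor, had a few libraries far above the rest in 3 of the groups. Female controls 1 to 5 were at 27.9, 26.8, 20.96, 10.8 and 8.80 CPM, and male controls at 14.2, 7.29, 10.01, 7.23 and 10.8 CPM. Susceptible females were at 6.6, 6.53, 34.8, 17.1 and 8.07 CPM, and susceptible males at 8.85, 7.90, 9.86, 8.77 and 28.5 CPM. The high libraries were female controls 1, 2 and 3, susceptible females 3 and 4 and susceptible male 5, and the remaining 14 lay between 6.53 and 14.2 CPM.

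The control estimate for Adra1b, male minus female, was -0.94 ± 0.49 (0.52-fold, 95% interval -1.96 to 0.08, edgeR adjusted p = 0.29). It was -0.05 with the striatal and thalamic scores as covariates and 0.01 without the 5 libraries over 1 CPM of Pmch, which include the 3 high female controls. limma voom with sample quality weights gave -1.11 and an adjusted p of 0.044, in a fit that called 3324 genes, and the adjusted p over all alternatives ran from 0.044 to 0.9994. For stress the estimates were -0.38 (95% interval -1.38 to 0.63) in females and 0.37 (95% interval -0.66 to 1.39) in males. Their difference was -0.74 ± 0.68 (edgeR adjusted p = 0.70), which was -0.21 without susceptible male 5, -1.35 without susceptible female 3 and 0.67 without the Pmch libraries.

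Of the α2 receptors, Adra2c had the largest estimates between controls, for stress in each sex and for the difference between those responses. Adra2b had larger ones between susceptible mice (-0.36, against 0.04 for Adra2c) and in the mean response (-0.11, against 0.05). Female controls 1 to 5 were at 9.81, 23.9, 23.5, 40.1 and 42.6 CPM of Adra2c and male controls at 39.7, 47.4, 43.5, 57.9 and 36.7 CPM. Female controls 1, 2 and 3 lay below every male control, while female controls 4 and 5 lay among them. The estimate, male minus female, was 0.69 ± 0.32 (1.61-fold, 95% interval 0.02 to 1.36), with an unadjusted p of 0.0445 and an edgeR adjusted p of 0.25. It was 0.47 without female control 1, 0.11 without the Pmch libraries and 0.03 with the striatal and thalamic scores as covariates. limma voom with quality weights gave 0.93 with an adjusted p of 0.0187, in the fit that called 3324 of 14884 genes. The adjusted p over all alternatives ran from 0.0187 to 0.973.

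Susceptible females were at 38.0, 49.1, 29.4, 19.5 and 45.4 CPM of Adra2c and susceptible males at 31.9, 45.4, 48.3, 38.9 and 21.1 CPM. Each susceptible group held 1 library near 20 CPM, susceptible female 4 and susceptible male 5, both high in Pmch. The stress estimate was 0.37 ± 0.32 in females (edgeR adjusted p = 0.80) and -0.28 in males (95% interval -0.95 to 0.39). Female minus male, the responses differed by 0.65 ± 0.45 (edgeR adjusted p = 0.63). The female estimate was 0.15 without female control 1, 0.57 without female control 5, -0.16 with the regional scores as covariates and -0.03 without the Pmch libraries, and the difference between the sexes was -0.08 and 0.09.

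Markers of neighbouring regions and other cell types differed in the same contrasts. Between male and female controls, 13 of 13 striatal estimates were above 0 (median 0.99) and 10 of 10 thalamic estimates below 0 (median -1.61), against a median of -0.0026 over all genes. In susceptible against control females, 13 of 13 striatal estimates were above 0 (median 0.90) and 10 of 10 thalamic below 0 (median -0.49). In males the signs turned, with 13 of 13 striatal estimates below 0 (median -0.32) and 9 of 10 thalamic above 0 (median 0.67). None of the listed striatal or thalamic genes was called in these comparisons. Hypothalamic estimates were below 0 for 11 of 12 genes between controls (median -1.70) and 10 of 12 in females (median -1.02), and above 0 for 11 of 12 in males (median 0.57). Between controls, 10 of 10 oligodendrocyte estimates were below 0 (median -0.62, 1 called) and 10 of 10 endothelial and pericyte estimates above 0 (median 0.55, 2 called). The part of these markers in the Adra2c and Adra1b estimates was not tested beyond the values given.

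Adra2a, the α2A receptor and main brake on noradrenaline release, had group means within 3 CPM of each other. They were 32.9 ± 9.43 CPM (SD, n = 5) in female controls, 31.4 ± 8.02 in susceptible females, 29.9 ± 8.81 in male controls and 30.9 ± 7.28 in susceptible males. The lowest library was male control 3 at 17.8 CPM and the highest was female control 1 at 46.0 CPM. The stress intervals were -0.56 to 0.42 in females and -0.45 to 0.54 in males, on the log2 scale.

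Adra2b, the α2B receptor, was the least expressed per exon length. Means were 5.28 ± 2.45 CPM in female controls, 4.79 ± 3.53 in susceptible females, 3.96 ± 0.768 in male controls and 3.75 ± 2.19 in susceptible males. The highest libraries were susceptible female 3 at 10.7 CPM, female control 1 at 8.45, female control 2 at 7.32 and susceptible male 5 at 7.11 CPM. All 4 also had high Adra1b. The stress intervals were wide, -1.06 to 0.78 in females and -1.02 to 0.86 in males.

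Adrb1, the β1 receptor that couples noradrenaline to cAMP, had nearly equal group means. They were 19.6 ± 4.13 CPM in female controls, 19.8 ± 5.62 in susceptible females, 19.5 ± 3.23 in male controls and 18.3 ± 2.61 in susceptible males. Libraries ran from 12.6 CPM in susceptible female 4 to 27.3 CPM in susceptible female 5. Intervals were the narrowest of the 7 genes, -0.37 to 0.39 for stress in females, -0.47 to 0.29 for stress in males and -0.38 to 0.37 for sex in controls.

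**Figure D3:**
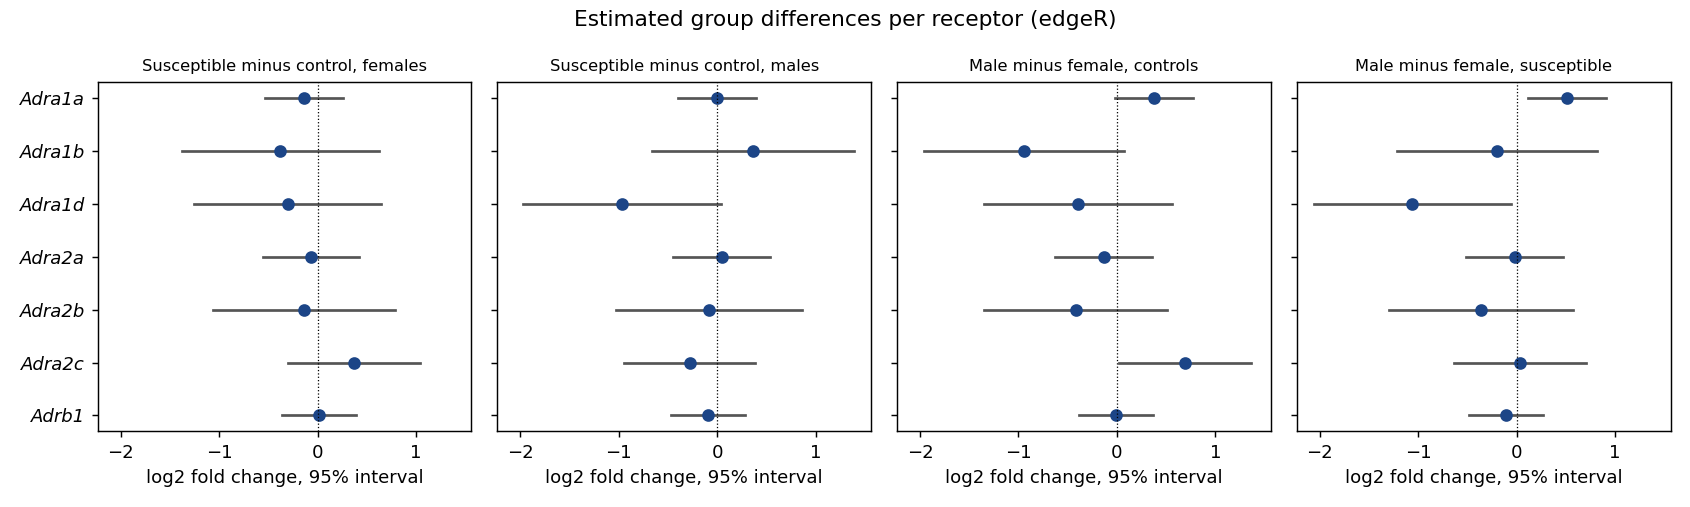
Estimated log2 fold change of each receptor in 4 comparisons (edgeR, all 20 libraries in 1 fit), points with 95% intervals and a dotted line at 0. Only Adra2c between controls and Adra1a and Adra1d between susceptible mice have intervals that leave out 0, and no adjusted p was under 0.05.

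The receptors did not vary independently over the libraries. Of 21 pairs, 3 had a Benjamini-Hochberg adjusted p under 0.05 over the 20 libraries, all 3 with Adra1b. Adra1b and Adra2c ran in opposite directions, with a Pearson r of -0.794 (permutation p = 4e-05, adjusted p = 0.00084) and a Spearman rho of -0.786 (adjusted p = 0.0023). The r was -0.848 without the 2 libraries farthest from the median of Adra1b and -0.75 on values centred on the group means. Adra1b ran with Adra1d (r = 0.636, adjusted permutation p = 0.0199, rho = 0.629, and r = 0.637 without 2 libraries). It ran with Adra2b (r = 0.635, adjusted permutation p = 0.0199), but with a rho of 0.426 (adjusted p = 0.22) and an r of 0.454 without 2 libraries, so that relation rests in part on susceptible female 3 and susceptible male 5.

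Adra1b and Adra2c followed markers of different neighbouring regions. For the correlations that follow, a list score is the mean log2 CPM of its genes, and 49 relations were tested in 1 family. Libraries were split at a gap in the striatal, thalamic and cortical scores (0.512, 0.64 and 0.835 SD wide), and this split was chosen after seeing the data. The hypothalamic, astrocyte and oligodendrocyte scores, with gaps of 0.452, 0.339 and 0.359 SD, were not split. An r with the hypothalamic score therefore spans 14 libraries below its gap and 6 above it. In the 7 libraries with high thalamic scores (female controls 1, 2 and 3, male control 1, susceptible females 3 and 4, susceptible male 5), Adra1b rose with the score, with an r of 0.965 (exact permutation p = 0.00119, adjusted p = 0.0146) and a rho of 0.929. The r was 0.924 without the 2 farthest libraries and 0.982 on group-centred values. Male control 1 and susceptible male 5 were the only libraries of their groups among the 7. Centring left both without any deviation, so permuting the centred values of the 7 is not a valid test. In the other 13 libraries the r was 0.462 (permutation p = 0.11, adjusted p = 0.25). Adra2b had an r of 0.897 in the 7 libraries (exact permutation p = 0.00992, adjusted p = 0.0608), 0.989 without the 2 farthest and 0.997 on group-centred values.

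Adra2c followed the striatal list. In the 16 libraries above the gap in the striatal score, its r with the score was 0.79 (permutation p = 0.00017, adjusted p = 0.00416), its rho was 0.882, and its r was 0.841 without the 2 farthest libraries and 0.785 on group-centred values. The other 4 libraries, female controls 1 and 3, susceptible female 4 and susceptible male 5, were too few for a correlation and held 9.81, 23.5, 19.5 and 21.1 CPM of Adra2c, the 4 lowest values of the series. Against the hypothalamic score over 20 libraries, Adra2c had an r of -0.806 (permutation p = 1e-05, the smallest that 100000 resamples give, adjusted p = 0.00049) and Adra1b an r of 0.72 (permutation p = 0.00046, adjusted p = 0.00751). Without the 2 farthest libraries these were -0.723 and 0.667.

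Adrb1 had an inverse relation with the thalamic score within the 13 libraries of low score (r = -0.749, permutation p = 0.00225, adjusted p = 0.022, rho = -0.835, and r = -0.752 without the 2 farthest). Against the cortical and hippocampal score, its r in the 16 libraries of low score was 0.573 (permutation p = 0.0202, adjusted p = 0.0992) and 0.765 on group-centred values (adjusted permutation p = 0.00532). The adjustment of the centred values included the 7 libraries with high thalamic scores, where they give no valid test. Adra2c also ran against the astrocyte score (r = -0.585, adjusted permutation p = 0.0473), but the r was -0.337 without female controls 1 and 3, on which that relation rests, and -0.474 on group-centred values (adjusted permutation p = 0.11). Against the oligodendrocyte score Adra1b had an r of 0.574 (adjusted permutation p = 0.0505) and a rho of 0.632 (adjusted p = 0.0296), and Adra2c an r of -0.548 (adjusted permutation p = 0.0843) and a rho of -0.63 (adjusted p = 0.0296). On group-centred values these r were 0.476 (adjusted permutation p = 0.11) and -0.341 (adjusted p = 0.299). Adra1d had no r with an adjusted p under 0.05 before centring. Its r with the thalamic score in the 7 high libraries was 0.476 (adjusted exact permutation p = 0.437). It was 0.891 on group-centred values, which give no valid test in those 7. Adra1a and Adra2a had no r with an adjusted p under 0.05 to any of the 6 scores, before or after centring.

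**Figure D4:**
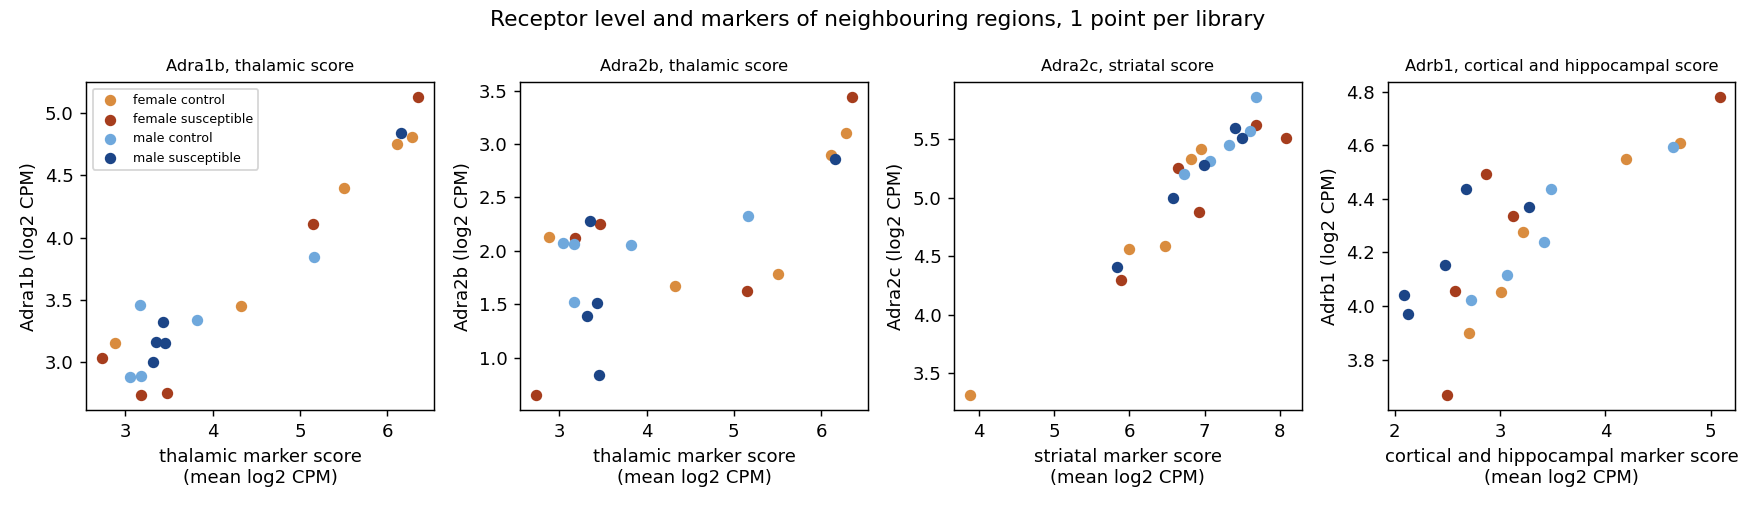
Level of 4 receptors (log2 CPM) against a marker score (mean log2 CPM of the list), 1 point per library coloured by group. Adra1b climbs with the thalamic score in the 7 libraries above 5, and Adra2c climbs with the striatal score.

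The genes closest to each receptor in pattern, by Pearson r of log2 CPM over the 20 libraries, were as follows, given as a description since libraries share tissue composition. For Adra1b they were Ccdc136 (0.991), Shisal1 (0.973) and Sh3d19 (0.972), and for Adra2c Lingo3 (0.978), the muscarinic receptor gene Chrm4 (0.976) and Arhgap10 (0.976). For Adrb1 they were Zbtb18 (0.900), Kcnab2 (0.887) and Slc17a7 (0.887), the vesicular glutamate transporter of cortical neurons. Adra1d was closest to the peptide gene Cck (0.873), Wnt9a (0.856) and Ap2a2 (0.830). For Adra1a they were Zfp26 (0.854), Zfp462 (0.851) and Rapgef6 (0.847), for Adra2a 1700001L19Rik (0.854), Gfra2 (0.789) and Trhde (0.777), and for Adra2b Fzd1 (0.846), Cfap44 (0.837) and Vil1 (0.808).

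Transcripts for making and clearing noradrenaline were scarce where they mark noradrenergic cell bodies, which lie in the brain stem. Dbh, the enzyme that makes noradrenaline, had 0 to 10 counts per library and 0 in 10 of 20 libraries. Slc6a2, the noradrenaline transporter, had 0 to 2 counts and 0 in 14 of 20, and it was at 0 in all 10 susceptible libraries, where 3 counts over a group would be 0.0372 CPM in females and 0.0390 CPM in males, and at a mean of 0.0375 CPM in female controls and 0.0516 CPM in male controls. No change can be read from values this near the limit. Th, the rate-limiting enzyme of catecholamine synthesis, was at 9.58 ± 3.44 CPM (SD, n = 20) and Maoa, which breaks monoamines down, at 43.5 ± 7.45 CPM. Their stress estimates were 0.15 ± 0.29 and -0.08 ± 0.15 in females and 0.50 ± 0.29 and 0.16 ± 0.15 in males.

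Downstream genes of the 3 receptor classes were read from fixed lists, and no listed gene was called in any of the 6 comparisons. The lists held 14 Gq genes (G proteins, phospholipase C, protein kinase C), 16 Gi and Go genes (G proteins, GIRK and calcium channels), 21 Gs and cAMP genes, 9 genes of receptor desensitisation and 10 of noradrenaline supply, of which 8 passed the filter. In females, 1 of 14 Gq genes was higher and 1 of 16 Gi genes higher and 1 lower at an unadjusted p under 0.05. Of the Gs genes 1 of 21 was lower, and none of the other lists' genes passed (5.85% of all genes did). The list medians were 0.02, -0.05, -0.001, -0.01 and -0.03 in the order given, against 0.01 over all genes.

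In susceptible against control females, the Gq genes with the smallest p were Rgs2, a brake on Gq signalling, at 0.56 ± 0.20, and Prkcb at 0.44 ± 0.26. For the Gi list they were Gnb5 (0.40 ± 0.16) and the calcium channel gene Cacna1b (-0.17 ± 0.08), for the Gs list the adenylyl cyclases Adcy6 (-0.36 ± 0.14) and Adcy5 (0.55 ± 0.30), for desensitisation the receptor kinases Grk2 (-0.13 ± 0.07) and Grk3 (-0.16 ± 0.10), and for supply the transporter Slc29a4 (-0.47 ± 0.30). All 9 had an edgeR adjusted p of at least 0.77.

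In susceptible against control males, 1 of 14 Gq genes was lower, 1 of 21 Gs genes higher, 2 of 9 desensitisation genes lower and 1 of 8 supply genes lower at an unadjusted p under 0.05, with none of 16 Gi genes and 9.67% of all genes. Of the desensitisation genes, 8 of 9 estimates were below 0 (median -0.11, against -0.01 over all genes), with the kinase gene Grk6 at -0.15 ± 0.06 and Ppp1r9b at -0.35 ± 0.15. Gna11 (-0.17 ± 0.06) and Plcb3 (-0.17 ± 0.09) led the Gq list, Rgs7 (0.14 ± 0.07) and Cacna1a (-0.18 ± 0.10) the Gi list, and Prkar1a (0.18 ± 0.07) and Pde4a (-0.22 ± 0.11) the Gs list. Slc22a3, a transporter that clears monoamines, was at -0.51 ± 0.20 and had an edgeR adjusted p of 0.46.

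Between male and female controls more pathway genes passed at an unadjusted p under 0.05, as did 19.2% of all genes. These were 2 of 14 Gq genes higher, 1 of 16 Gi genes higher and 2 lower, 4 of 21 Gs genes higher and 2 lower, 1 of 9 desensitisation genes higher and 2 of 8 supply genes lower. The leading genes were Gna11 (0.17 ± 0.06) and Prkcb (0.57 ± 0.26), Rgs7 (-0.21 ± 0.07) and Gnb5 (0.39 ± 0.16), Adcy5 (0.86 ± 0.31), the main adenylyl cyclase of the striatum, and Adcy9 (0.59 ± 0.21). Grk6 (0.12 ± 0.06) and Ppp1r9b (0.28 ± 0.15) led desensitisation, and Slc18a2 (-0.76 ± 0.26), the vesicular monoamine transporter, and Maob (-0.77 ± 0.32) led supply. Adcy5 has the direction of the striatal markers given above, and their part in it was not tested.

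Between susceptible males and females, 1 of 16 Gi genes passed at an unadjusted p under 0.05, Cacna1b at 0.22 ± 0.08, and none of the other lists' genes (6.28% of all genes passed). The next Gi gene was Kcnj3 (-0.33 ± 0.21), and among the genes with the smallest p in the other lists were Plcb2 (0.36 ± 0.23), Adcy2 (0.16 ± 0.10), Snx27 (0.13 ± 0.07) and Gipc1 (-0.12 ± 0.10), and Slc18a2 (-0.40 ± 0.26) and Slc22a3 (-0.29 ± 0.20).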

How the data were processed

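The authors deposited raw gene-level read counts, in 1 table for each of the 20 libraries, made with HISAT2 and featureCounts on mm10 per the submitters' processing notes. For versions, annotation and strand setting the sources used here give nothing. Groups came from the sample titles. The receptors, gene lists and tests were chosen with earlier results of these data known.

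From the counts (14637636 to 17862840 per library), TMM-scaled CPM and a robust quasi-likelihood fit with 1 mean per group over all 20 libraries were computed with edgeR 4.0.16 in R 4.3.3, after filterByExpr (14884 of 19214 genes), with Benjamini-Hochberg adjustment over all genes and a threshold of 0.05. Standard errors were computed as the size of the log2 fold change divided by the root of F. The code was tested on simulated data. Marker and pair correlations used log2 CPM (prior count 2) and 2-sided permutation tests (100000 resamples, exact for 7 libraries) in SciPy 1.17.1. Levels per kb used the union of GENCODE M21 exons.

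The rule named all 7 receptors, the 3 genes closest to each, and of each pathway list the called genes or else the 2 with the smallest p, with Th, Dbh, Slc6a2 and Maoa always given. A few genes the rule names are not reported here. Estimates beyond 1 standard error are described individually, a rule set after seeing the data. Alternatives were DESeq2 1.42.0, its size factors, limma 3.58.1 voom with quality weights, other count filters, a replicate block, striatal and thalamic scores as covariates, the groups of a comparison alone, and libraries left out.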

Additional observations from a re-analysis of the deposited data

Results flagged for a closer look

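The Adra1b level of susceptible male 5, 28.5 CPM, stood apart from the other 4 libraries of its group, which lay at 7.90 to 9.86 CPM, by Dixon's gap test. Of the 28 combinations of 7 receptors and 4 groups tested this way, chance flags about 1 in 20. The same library held over 100 CPM of Ttr and over 1 CPM of Pmch, had the highest thalamic score of its group and the highest Adra2b and the lowest Adra2c of its group. The part of these markers in the Adra1b level was not tested.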

How the results depend on the processing

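Of the 11 receptor estimates beyond 1 standard error, 7 kept their direction under all alternatives run, and leaving out any single library turned none. With striatal and thalamic scores as covariates, Adra2c turned to -0.1561 for stress in females and to -0.0812 for the difference between the sexes in the stress response. Without the libraries over 1 CPM of Pmch, Adra2c turned to -0.0298 for stress in females, Adra1b to 0.6736 for that difference and to 0.008 between controls. These libraries include 3 of 5 female controls, so only 2 remained. limma voom with quality weights called 2 of 7 receptors between male and female controls, Adra1b and Adra2c, in a fit that called 3324 of 14884 genes. There edgeR called 0 receptors and 76 genes, and DESeq2 called 0 receptors and 455 genes. The cause of the difference was not tested. The other 31 estimates lay within 1 standard error, 28 of them changed sign in some alternative, and none was called in any. On group-centred values the correlations of Adra1d (-0.0644) and Adra2b (-0.0466) with the cortical score and of Adra2a with the astrocyte score (-0.0895) turned from weak positive values. Centring raised the r of Adra1d (0.891) and Adra2b (0.997) with the thalamic score in the 7 high libraries. With 1 library for each male group there, the centred values give no valid test. Centring brought the relation of Adrb1 (0.765) with the cortical score under an adjusted p of 0.05, and took that of Adra2c with the astrocyte score (-0.474) above it. These adjusted p-values were computed over all 49 relations, including those of the 7 high libraries.

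Pairing of libraries by the replicate numbers of the titles was not shown. Regional markers also varied widely between libraries, so the correlations that follow do not decide whether libraries were paired. Of 30 same-numbered pairs, 11 had deviations correlated over 0.1 (range -0.58 to 0.642), and 6 of 20 libraries correlated best with their own number. With the replicate block 0 of 7 receptors were called in each comparison, and the Adra1d estimate for stress in males was -1.0169. Depth limits Adra1d most, with as few as 10 counts in a library, and 5 libraries per group leave intervals of about 1 log2 unit on either side of the estimates for Adra1b, Adra1d and Adra2b.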

Other observations

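Averaged over both sexes, the stress response of the downstream lists had no called gene. Rgs2, a brake on Gq signalling, was at a log2 fold change of 0.34 ± 0.14 and Plcb3 at -0.12 ± 0.06, the GIRK channel gene Kcnj6 at -0.53 ± 0.25 and Cacna1b at -0.12 ± 0.05, and the receptor kinases Grk3 and Grk2 at -0.17 ± 0.07 and -0.09 ± 0.05. The kinase A genes Prkar1a and Prkacb were at 0.09 ± 0.05 and 0.10 ± 0.05, and Th and Slc22a3 at 0.32 ± 0.20 and -0.23 ± 0.14. Their edgeR adjusted p-values were at least 0.60.

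For the difference between the sexes in the stress response, female minus male, Gna11 (0.19 ± 0.09) and Itpr1 (0.84 ± 0.46) led the Gq list, Gnb5 (0.52 ± 0.23) and Gng2 (-0.43 ± 0.25) the Gi list, and Adcy8 (-1.02 ± 0.49) and Gnas (-0.67 ± 0.34) the Gs list. Ppp1r9b (0.45 ± 0.22) and Grk6 (0.15 ± 0.08) led desensitisation, and Slc29a4 (-0.96 ± 0.43) and Slc22a3 (0.56 ± 0.29) led supply. All had an edgeR adjusted p of at least 0.5868.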
